A study of Mus musculus with 47 samples.

Results

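The comparison described here set liver of NZO/HlLtJ mice against liver of C57BL/6J mice, both on the diet labelled 10% fat with fiber, and it took 16 of the 47 RNA-seq libraries of the series. Its members were chosen from the sample titles alone: all libraries titled with that diet and either strain, 8 from each, of which 4 were female and 4 male, with the sex code as a covariate. Both strains are inbred and labelled wild type, no treatment other than the diet is given, the diet began at 6 weeks of age and tissue was collected at 15 weeks. The remaining libraries came from CAST/EiJ mice on the same diet (7 libraries) and from all 3 strains on a diet of 44% fat. No label states that each library is a different animal, so each p-value speaks of the spread between samples, which may be technical.

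NZO/HlLtJ is an inbred line known for polygenic obesity, and its males are prone to diabetes; C57BL/6J is the strain whose genome serves as the mouse reference. The liver makes plasma proteins, bile acids, glucose and fat, clears drugs and steroids through cytochrome P450, glutathione and glucuronide enzymes, and secretes the urinary pheromone carriers called major urinary proteins. Much of this output is sex dependent in mice, through the pattern of growth hormone release, and several of the gene families involved sit in clusters of close paralogs that differ in number and sequence between strains.

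Total counts ran from 36.63 M to 47.18 M in the 16 libraries, and 15346 of 20320 genes passed the filter on low counts. The first principal component, with 40.1% of the variance, separated the strains and the second, with 26.7%, the sexes, and replicates of a group correlated at 0.973 to 0.989 across genes. Albumin, the main hepatocyte product, stood at 53930, 76760 and 87990 CPM (counts scaled to a fixed library total, adjusted by TMM factors; lowest, median and highest of 8 libraries) in C57BL/6J and at 64540, 79330 and 110600 CPM in NZO/HlLtJ. All 16 libraries carried the sex-linked transcripts of their labelled sex. C57BL/6J male replicates 2 and 3 also held transcripts of pancreatic acinar cells, with the carboxypeptidase gene Cpa1 at 41.4 and 74.19 CPM, and counts without these libraries are given wherever they differ by more than 1.5 times. Library identifiers fell into 3 consecutive runs, which hold 2, 3 and 3 C57BL/6J and 4, 2 and 2 NZO/HlLtJ libraries.

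In the fit of strain and sex, 5767 genes differed between the strains at an adjusted p under 0.05, which is 37.6% of those tested. Of these, 3009 (19.6% of genes tested) were higher in NZO/HlLtJ and 2758 (18.0%) were lower. Most differences were small, with a median absolute log2 fold change of 0.49 among the called genes, and 1321 genes (8.61%) were called and differed at least 2-fold. At least 8-fold differences numbered 127 higher and 126 lower, and at least 32-fold differences 52 higher and 44 lower. The 8 libraries of one strain lay wholly above the 8 of the other for 1388 genes (9.04%). The strain difference had the same sign in females and males for 5755 of the 5767 called genes. The calls came from both sexes together, so this agreement was largely set by the selection. In females alone 3164 genes were called and in males alone 3318. Without the C57BL/6J libraries that held acinar transcripts 4774 genes were called, and with the identifier run as a covariate 5345. Within single runs the counts were 2103, 1155 and 931.

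**Figure D1:**
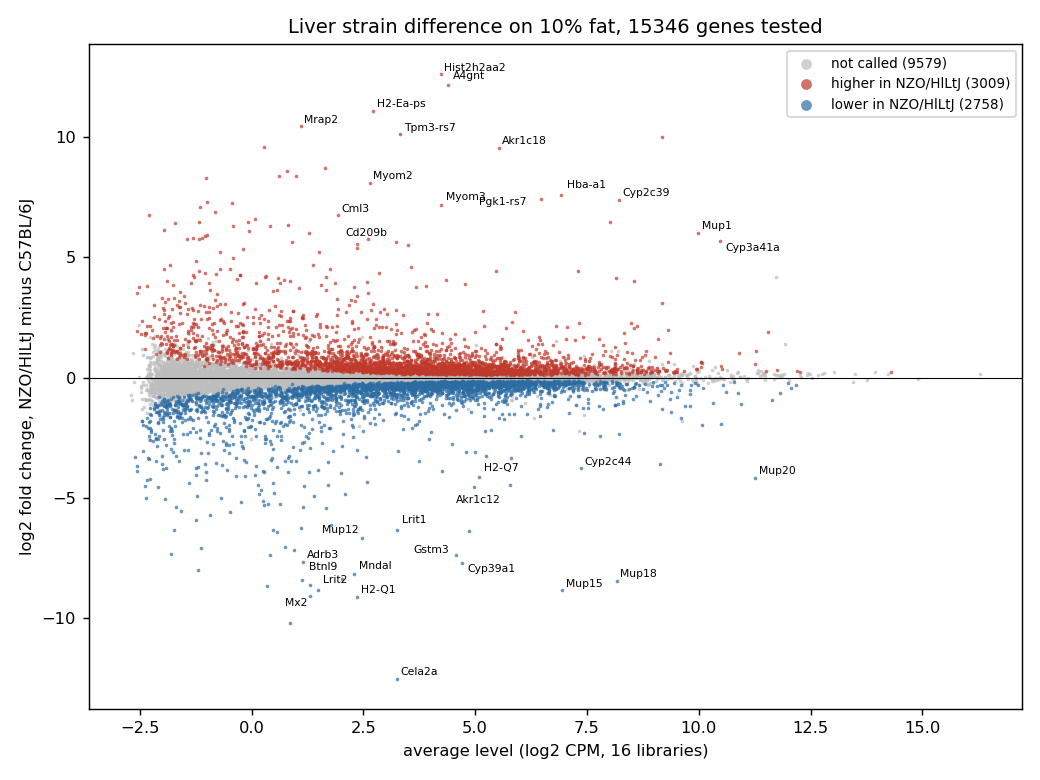
Log2 fold change of NZO/HlLtJ over C57BL/6J (vertical axis) against average level in log2 CPM over the 16 libraries (horizontal axis) for 15346 genes, red where called higher (3009), blue where called lower (2758) and grey where not called. The named genes reach beyond 8 on the log2 scale in both directions, while the bulk of called genes lies close to 0.

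Among transcripts that were near absent in C57BL/6J and clearly present in NZO/HlLtJ, Akr1c18 had the smallest p of all genes. It encodes an aldo-keto reductase that inactivates progesterone (chromosome 13, 4132615 to 4150654, GRCm38). It measured 0.049, 0.089 and 0.260 CPM in C57BL/6J and 59.3, 90.1 and 123.8 CPM in NZO/HlLtJ, a log2 fold change of 9.56 (SE 0.12, adjusted p = 4.46e-20). The lowest NZO/HlLtJ library stood far above the highest C57BL/6J library, and CAST/EiJ on the same diet averaged 160.7 CPM (SD 30.4, n = 7). Cyp2c39, a P450 of the 2C family, measured 0.79, 4.31 and 8.09 CPM in C57BL/6J and 216.8, 616.3 and 927.1 CPM in NZO/HlLtJ (log2 fold change 7.40, SE 0.27, adjusted p = 1.04e-11). Its level was higher in females than in males in both strains, with means of 7.51 and 1.09 CPM in C57BL/6J and 869.9 and 301.5 CPM in NZO/HlLtJ.

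A4gnt, which encodes a glycosyltransferase best known from gastric mucus, had 2 counts over all C57BL/6J libraries together and 13377 over those of NZO/HlLtJ. The ratio of those counts has a 95% counting interval from 1840 to 54800, and the NZO/HlLtJ libraries ran from 22.5 to 89.1 CPM. Mrap2, an accessory protein of melanocortin receptors, had 0 counts in every C57BL/6J library and 0.448, 2.81 and 12.7 CPM in NZO/HlLtJ, at least 438-fold higher when set against a floor of 3 counts over the C57BL/6J group. Its NZO/HlLtJ means were 1.27 CPM in females and 7.19 CPM in males. Cd209b, a C-type lectin that binds microbial sugars, went from 0.088, 0.210 and 0.333 CPM to 8.47, 9.93 and 10.9 CPM (log2 fold change 5.57, SE 0.17, adjusted p = 3.48e-14). The sarcomere proteins Myom2 and Myom3 were also called higher, with log2 fold changes of 8.10 (SE 0.56) and 7.17 (SE 0.26), and Myom2 averaged 1.95 CPM in NZO/HlLtJ females and 22.6 CPM in NZO/HlLtJ males. For all of these genes the libraries of the strains did not overlap, against 9.04% of all genes tested. They were named for a large difference or a small p, so this separation was largely set by the selection.

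The lowest genes in NZO/HlLtJ included enzymes that are well expressed in C57BL/6J liver. Cyp39a1, a hydroxylase of oxysterols (chromosome 17, 43667425 to 43751431), measured 28.2, 54.4 and 67.4 CPM in C57BL/6J and 0.081, 0.214 and 0.423 CPM in NZO/HlLtJ (log2 fold change -7.69, SE 0.25, adjusted p = 8.22e-13). CAST/EiJ averaged 100.6 CPM of it (SD 51.7, n = 7), so NZO/HlLtJ was the low strain among the 3. Akr1c12, another aldo-keto reductase of the chromosome 13 cluster (4268172 to 4279433), measured 49.8, 58.6 and 70.3 CPM in C57BL/6J and 2.28, 2.44 and 3.21 CPM in NZO/HlLtJ (log2 fold change -4.52, SE 0.07, adjusted p = 1.98e-19). CAST/EiJ averaged 2.95 CPM. The 2 Akr1c genes therefore lay in opposite directions within 1 cluster, and both separated the strains without overlap.

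Lrit1 and Lrit2, which lie close together on chromosome 14 and encode leucine-rich repeat membrane proteins, were both low in NZO/HlLtJ. Lrit1 fell from 13.6, 18.5 and 23.5 CPM to 0.128, 0.199 and 0.383 CPM (log2 fold change -6.34, SE 0.20, adjusted p = 6.89e-14). Lrit2 had 1841 counts in C57BL/6J and 3 in NZO/HlLtJ, and the counting interval of that ratio runs from 211 to 3000. Adrb3, the beta-3 adrenergic receptor, had a log2 fold change of -7.64 (SE 0.36) and Btnl9, a butyrophilin-like protein, of -8.36 (SE 0.29). In each of these genes every C57BL/6J library was above every NZO/HlLtJ library, which their naming for a large difference or a small p largely set.

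The pancreatic elastase gene Cela2a had the largest negative estimate, with 0 counts in every NZO/HlLtJ library and 0.049, 0.276 and 97.8 CPM in C57BL/6J, at least 2220-fold lower against the floor of 3 counts. Male replicates 2 and 3, the libraries with acinar transcripts, stood at 47.6 and 97.8 CPM and the other C57BL/6J libraries under 1 CPM. The call (adjusted p = 0.0333) was lost with the identifier run as a covariate (adjusted p = 0.0941), with 4 group means (adjusted p = 0.0816), with limma on the deposited variance-stabilized values (adjusted p = 0.0782) and when any 1 of 10 libraries was left out. It held with DESeq2 (adjusted p = 5.01e-09) and without the acinar libraries (adjusted p = 9.72e-04).

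**Figure D2:**
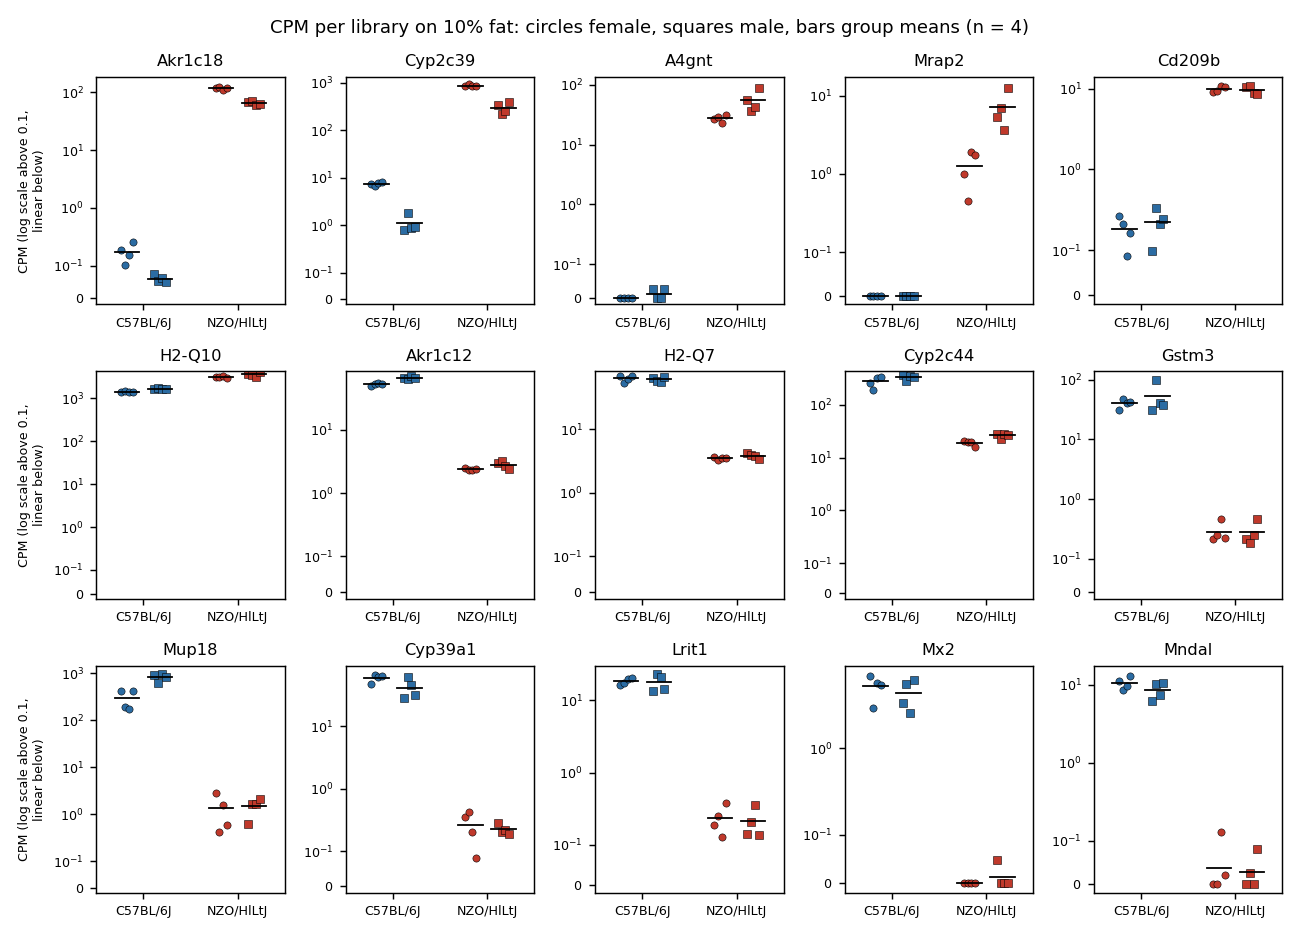
CPM in each of the 16 libraries for 15 genes (vertical axes logarithmic above 0.1 CPM and linear below), C57BL/6J in blue and NZO/HlLtJ in red, circles for females, squares for males, bars for means of 4. In each panel the strains are separate in both sexes; Akr1c18, Cyp2c39, A4gnt, Mrap2, Cd209b and H2-Q10 are high in NZO/HlLtJ and the other 9 are low.

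Several of the largest differences belonged to genes with a near-identical copy elsewhere in the genome. Among the highest were Gm4737 (named after its values were seen), Pgk1-rs7, Hba-a1, Tpm3-rs7 and Hist2h2aa2. Gm4737 is an intronless copy of Ahcy, the enzyme that breaks down S-adenosylhomocysteine in the methionine cycle, and Pgk1-rs7 is a processed pseudogene of the glycolytic enzyme Pgk1. The coding sequence of Ahcy (1299 bases over 10 exons, chromosome 2) differs from Gm4737 (1 exon, chromosome 16) at 4 bases, an identity of 99.7%. Of the 1254 coding bases of Pgk1 (11 exons, X chromosome) 1253 align to Pgk1-rs7 (1 exon, chromosome 12) with 0 differences. Stretches of Ahcy and Gm4737 are shown because they let a reader see how little sequence separates the copies. They are the 120 coding bases within 1 exon that hold the most differences (the first such stretch where tied), from the GRCm38 genome as annotated by GENCODE vM21, with capitals at bases that differ between the copies. The Ahcy stretch lies in exon 9 at chr2:155062224-155062343 (minus strand) and the Gm4737 stretch in its single exon at chr16:46153921-46154040 (minus strand), with 2 differing bases.
Ahcy: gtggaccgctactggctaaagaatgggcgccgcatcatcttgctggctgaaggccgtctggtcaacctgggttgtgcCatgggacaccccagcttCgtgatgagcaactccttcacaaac
Gm4737: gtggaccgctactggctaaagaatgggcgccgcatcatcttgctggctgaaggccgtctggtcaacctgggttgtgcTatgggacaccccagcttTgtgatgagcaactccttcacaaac

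Reads are pairs of 100 bases, and the differences given above cover coding bases only. Where both reads of a pair fall on identical sequence, they could have come from either copy. In C57BL/6J, Ahcy measured 1506, 1667 and 1968 CPM and Gm4737 0.524, 1.17 and 1.51 CPM. In NZO/HlLtJ, Ahcy measured 354, 437 and 562 CPM and Gm4737 848, 1170 and 1389 CPM. Singly, both were called, with log2 fold changes of -1.96 (SE 0.09) for Ahcy and 10.02 (SE 0.25) for Gm4737. Their sum, with a further copy included, averaged 1683 CPM (SD 157) in C57BL/6J and 1579 CPM (SD 265) in NZO/HlLtJ, n = 8 each, and was not called (log2 fold change -0.11, SE 0.09, adjusted p = 0.398).

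Pgk1 behaved in the same manner: 231, 263 and 283 CPM in C57BL/6J against 91.8, 109 and 136 CPM in NZO/HlLtJ, while Pgk1-rs7 went from 0.052, 0.992 and 2.31 CPM to 140.8, 175.1 and 206.0 CPM. The family summed to 257.9 CPM (SD 20.9) and 282.6 CPM (SD 29.9), with a log2 fold change of 0.12 (SE 0.05, adjusted p = 0.0788). Hba-a1, an alpha globin gene, was higher in NZO/HlLtJ with a log2 fold change of 7.60 (SE 0.47), and the sum of the adult alpha globin genes was not called (0.48, SE 0.33, adjusted p = 0.279). Rnaset2a had a log2 fold change of 5.65 (SE 0.58), and Rnaset2a with Rnaset2b 0.07 (SE 0.06, adjusted p = 0.361). The complement gene C4a was higher by 4.44 (SE 0.37) on the log2 scale, and the sum of C4a and C4b was called at a smaller size, 0.41 (SE 0.11, adjusted p = 0.00635). Hist2h2aa2, a histone gene with 1 count in C57BL/6J and 12229 in NZO/HlLtJ, belongs to a family of 11 near-identical histone genes that summed to 37.3 and 72.2 CPM (log2 fold change 0.93, SE 0.09, adjusted p = 2.34e-07). Tpm3-rs7 is an exact copy of 615 of the 858 coding bases of the tropomyosin gene Tpm3; it had a log2 fold change of 10.12 (SE 0.27), and Tpm3 fell from 59.6, 66.4 and 75.8 CPM to 37.6, 41.0 and 46.1 CPM.

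Across the table, 985 of the genes tested (6.42%) had a partner of at least 95% identity over at least 80% of the shorter transcript. The share was 6.50% among all called genes, 11.3% among those that differed at least 2-fold, 23.3% of 253 genes at least 8-fold apart and 33.1% of 151 genes at least 16-fold apart. Of the 50 genes with a partner in the last group, 34 had a family sum that differed less than 2-fold, and 8 had a sum of the opposite sign. When families were summed before the fit, an alternative added after the data were seen, 5630 of 14994 rows were called (37.5%) and 105 were at least 16-fold apart. How far the assignment of reads between copies sets these single-gene values was not tested, since the counter is not given in the sources used here, nor was the effect of NZO/HlLtJ sequence differences from the C57BL/6J reference on read counts.

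**Figure D3:**
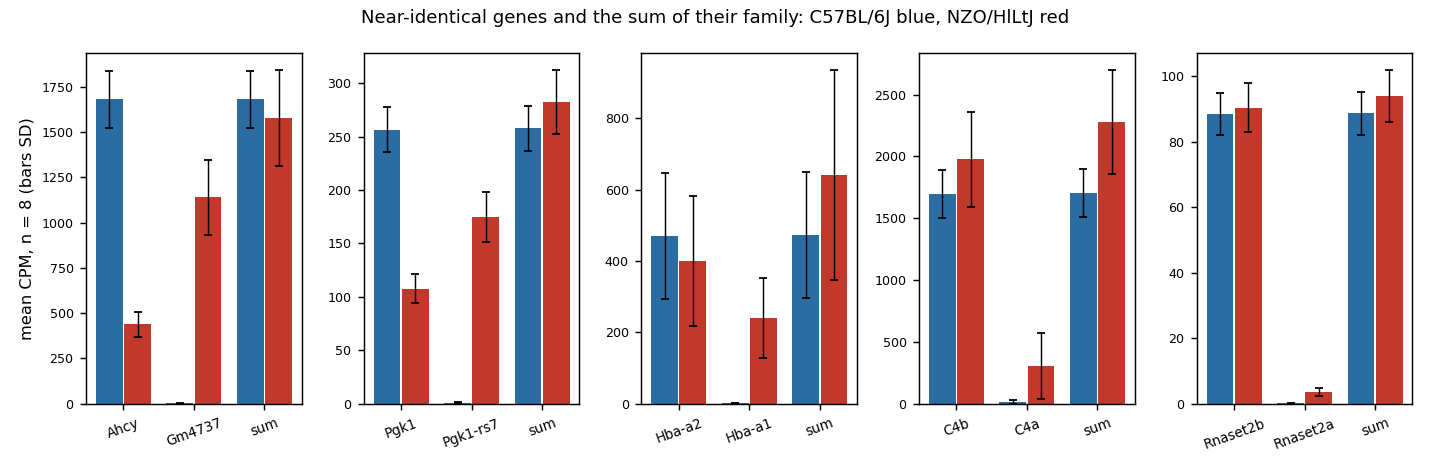
Mean CPM (n = 8 per strain, bars SD) of 5 pairs of near-identical genes and of their family sum, C57BL/6J in blue and NZO/HlLtJ in red, each panel on its own linear axis from 0. The second gene of each pair is near 0 in C57BL/6J and present in NZO/HlLtJ, and each sum differs by a smaller factor than that gene.

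Enzymes that process drugs and steroids differed in both directions. For this and the lists that follow, the shares over all genes tested were 19.6% higher, 18.0% lower and 37.6% called. Of 45 P450 genes of families 1 to 3, 11 were higher and 17 lower in NZO/HlLtJ (median log2 fold change -0.24, against -0.0 for all genes). Cyp2c44 on chromosome 19 measured 189, 323 and 365 CPM in C57BL/6J and 16.2, 21.6 and 28.0 CPM in NZO/HlLtJ (log2 fold change -3.76, SE 0.11, adjusted p = 2.26e-14), the reverse of Cyp2c39 on the same chromosome. Cyp2c50 and Cyp2c37 were lower by 1.09 (SE 0.15) and 2.33 (SE 0.24) on the log2 scale, and Cyp2c55 by 3.26 (SE 0.36). Cyp3a11, a major drug-oxidising enzyme of mouse liver, measured 1342, 1985 and 4608 CPM in C57BL/6J and 316, 632 and 924 CPM in NZO/HlLtJ (log2 fold change -1.94, SE 0.31, adjusted p = 1.78e-04). Of 11 Cyp4 fatty acid hydroxylases, 1 was higher and 4 were lower.

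Among the 7 tested mu class glutathione transferases on chromosome 3, enzymes that conjugate electrophiles to glutathione, 5 were lower in NZO/HlLtJ and 2 were higher. Gstm3 measured 30.4, 40.8 and 100.3 CPM in C57BL/6J and 0.181, 0.235 and 0.462 CPM in NZO/HlLtJ (log2 fold change -7.37, SE 0.32, adjusted p = 1.41e-10). Gstm6 and Gstm2 both had a log2 fold change of -3.10 (SE 0.11 and 0.18), and Gstm1 fell from 874, 1153 and 1794 CPM to 296, 375 and 429 CPM. Gstm7 went the other way, from 31.7, 41.8 and 49.9 CPM to 149, 174 and 221 CPM (log2 fold change 2.16, SE 0.10, adjusted p = 1.03e-11). None of these 5 genes overlapped between the strains, but they were named for a small p or a large difference. Of the 27 glutathione and antioxidant genes tested 7 did not overlap, against 9.04% of all genes tested. The other members, named after their values were seen, changed less: Gstm5 fell by 0.54 (SE 0.12) and Gstm4 was higher by 0.71 (SE 0.08). In the full list of 27 glutathione and antioxidant genes 7 were higher and 10 lower. Of 26 sulfotransferases and glucuronosyltransferases 10 were higher and 8 lower, with Ugt1a6a and Ugt1a1, which conjugate phenols and bilirubin, lower by 1.49 (SE 0.10) and 1.07 (SE 0.09) and Ugt3a1 higher by 0.74 (SE 0.07). Ugt1a9, Ugt1a10 and Ugt1a7c on chromosome 1, named after their values were seen, were each called at least 2-fold higher. The Ugt1a genes thus went in both directions. They share exons, so the split of reads among them is uncertain.

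Of 24 transporters 5 were higher and 3 lower, a share of 33.3% against 37.6% of all genes. Abcb1b, a P-glycoprotein drug pump, went from 0.420, 0.830 and 1.87 CPM to 18.2, 21.3 and 35.7 CPM (log2 fold change 4.59, SE 0.20, adjusted p = 2.56e-11). The prostaglandin carrier Slco2a1 fell by 1.22 (SE 0.09), and the organic ion carriers Slc22a3 and Slc22a7 were higher by 1.73 (SE 0.14) and 2.07 (SE 0.28). Among 21 genes of bile acid synthesis and transport, 2 were higher and 7 lower, or 1 higher without the acinar libraries. The share called on this list was 42.9%. Abcb11, the pump that exports bile salts into bile, measured 990, 1135 and 1324 CPM in C57BL/6J and 447, 492 and 564 CPM in NZO/HlLtJ (log2 fold change -1.19, SE 0.07, adjusted p = 1.29e-10), with no overlap. The basolateral pump Abcc3 fell by 0.90 (SE 0.12) and the sterol 27-hydroxylase Cyp27a1 by 0.45 (SE 0.08), while the 12-alpha-hydroxylase Cyp8b1 was higher by 0.56 (SE 0.15).

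The major urinary protein genes on chromosome 4 showed some of the largest shifts, with 4 of 19 higher, 5 lower and 10 not called. The count was 8 lower without C57BL/6J male replicate 2, and the higher count ran from 3 to 7 over alternatives outside 1 sex or run. The median log2 fold change was 0.07, with 0.64 in females and -0.38 in males. In the test of strain by sex 3 members were called, against 0.143% of all genes. Those calls were lost when any 1 of 2 (Mup8), 12 (Mup2) or 14 (Mup7) libraries was left out. Mup20, which encodes the male pheromone darcin, averaged 59.0 CPM (SD 16.6) in females and 9273 CPM (SD 1160) in males of C57BL/6J, and 5.77 CPM (SD 2.49) and 318 CPM (SD 84.2) in NZO/HlLtJ, n = 4 each. Its log2 fold change was -4.15 (SE 0.31, adjusted p = 7.12e-08), and libraries of the same sex did not overlap. Mup18 measured 171, 520 and 984 CPM in C57BL/6J and 0.423, 1.61 and 2.80 CPM in NZO/HlLtJ (log2 fold change -8.45, SE 0.49). Mup15 fell by 8.83 (SE 0.99). In the other direction, Mup1 averaged 0.791 and 114 CPM in C57BL/6J females and males and 128 and 3783 CPM in those of NZO/HlLtJ (log2 fold change 6.01, SE 0.74), and Mup9 had a log2 fold change of 6.46 (SE 0.67). Most of these genes are near-identical paralogs. The family of 11 that holds Mup1, Mup15 and Mup18 summed to 2471 CPM (SD 2570) in C57BL/6J and 3332 CPM (SD 2460) in NZO/HlLtJ and was not called (log2 fold change 0.56, SE 0.31, adjusted p = 0.177), and neither was the family of Mup7, Mup8, Mup9 and Mup13 (adjusted p = 0.0685). Mup20 kept its value when summed with its 1 near-identical pseudogene (-4.15, SE 0.31, adjusted p = 6.88e-08).

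Of 20 female-biased liver genes, 8 were higher, 5 lower and 7 not called, and of 20 male-biased genes 4 were higher, 6 lower and 10 not called. In females alone, 5 of the female-biased genes were called higher and 5 lower. In males alone, 2 of the male-biased genes were called higher and 4 lower. Hao2, a peroxisomal hydroxyacid oxidase, averaged 46.9 CPM (SD 12.5) in C57BL/6J females and 144.5 CPM (SD 25.4) in NZO/HlLtJ females, with both male groups under 1 CPM (log2 fold change 1.62, SE 0.21, adjusted p = 1.51e-05). The steroid 17-alpha-hydroxylase Cyp17a1 went from 122.6 to 30.8 CPM in females and from 7.29 to 1.39 CPM in males (log2 fold change -2.17, SE 0.19). Cyp4a12a, a male-specific hydroxylase, averaged 363 CPM (SD 98.3) in C57BL/6J males and 934 CPM (SD 25.6) in NZO/HlLtJ males (log2 fold change 1.43, SE 0.22). Its paralog Cyp4a12b was called in the opposite direction, lower in NZO/HlLtJ. That call was lost with DESeq2, all 47 libraries, limma and 4 group means. How reads were split between these paralogs was not tested. The growth hormone axis gave 1 higher and 2 lower of 13, with the female-specific repressor Cux2 lower by 0.93 (SE 0.17) and the signal transducer Stat5b by 0.31 (SE 0.08). The call for Cux2 was lost when all 47 libraries were in the fit.

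Fat synthesis genes were higher in NZO/HlLtJ in 7 of 20 cases and lower in 1, with a median log2 fold change of 0.45. The share called, 40.0%, was near the 37.6% of all genes. The median was 0.15 in females and 0.85 in males, and the summed level averaged 19080 CPM (SD 5680) in C57BL/6J and 19280 CPM (SD 6950) in NZO/HlLtJ females, against 20720 CPM (SD 1880) and 35590 CPM (SD 19800) in males, n = 4 each. In females alone 2 members were called higher and in males alone 6, and 0 members were called in the test of strain by sex. Thrsp, a regulator of lipogenesis, measured 22.9, 98.1 and 268 CPM in C57BL/6J and 172, 459 and 1455 CPM in NZO/HlLtJ (log2 fold change 2.14, SE 0.44, adjusted p = 0.00165). The lipid droplet lipase gene Pnpla3 was higher by 2.74 (SE 0.63) and the acetate-activating enzyme Acss2 by 1.05 (SE 0.26). Fasn, the fatty acid synthase, measured 597, 1155 and 1878 CPM in C57BL/6J and 771, 2483 and 6255 CPM in NZO/HlLtJ, ranges that overlap (log2 fold change 1.04, SE 0.34, adjusted p = 0.0254). The Fasn call was lost without NZO/HlLtJ female replicate 4, without C57BL/6J male replicate 3, and with DESeq2 (adjusted p = 0.0554). Mlxipl, the carbohydrate-sensing transcription factor, was the member that fell, by 0.28 (SE 0.07). Without the acinar libraries 3 members were called higher, and Fasn (0.81, adjusted p = 0.104) and the sterol-regulated factor Srebf1 (0.76, adjusted p = 0.0582, against 0.93 and 0.0123 with them) were not among them.

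Cholesterol synthesis had the largest share of higher members among lists of at least 8 tested genes, 13 of 24, with 2 lower and a median log2 fold change of 0.36. The higher count ran from 8 to 17 over alternatives outside 1 sex or run. In females alone 11 were called higher and in males alone 4, and 0 were called in the test of strain by sex. The median was 0.45 in females, 0.33 in males and 0.09 on 44% fat. Hsd17b7 measured 38.6, 52.4 and 65.2 CPM in C57BL/6J and 77.2, 80.4 and 104 CPM in NZO/HlLtJ (log2 fold change 0.70, SE 0.09, adjusted p = 4.12e-06), without overlap. The cyclase Lss was higher by 0.81 (SE 0.11), Dhcr7, the last enzyme of the pathway, by 1.03 (SE 0.16) and Mvd by 1.17 (SE 0.29). Sc5d, a desaturase late in the pathway, fell by 0.72 (SE 0.11). Scarb1, the receptor that takes up cholesterol from high density lipoprotein, went from 172, 202 and 249 CPM to 74.7, 95.5 and 114 CPM (log2 fold change -1.13, SE 0.09, adjusted p = 1.38e-08). It was the 1 lower member of 19 apolipoprotein and lipoprotein genes, of which 3 were higher.

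Fat oxidation and ketone body genes were called in 10 of 34 cases, 4 higher and 6 lower, or 3 lower without the acinar libraries, with a median of -0.06. Fatty acid uptake genes were 5 higher and 4 lower of 18, or 3 higher without those libraries. The hepatic lipase Lipc fell by 0.55 (SE 0.07) and the acyl-CoA synthetase Slc27a2 by 0.41 (SE 0.07), and the lipoprotein receptor Vldlr was higher by 1.47 (SE 0.33). Pparg, the adipogenic nuclear receptor, fell by 0.96 (SE 0.20) and Mogat1, a monoacylglycerol acyltransferase, was higher by 2.35 (SE 0.34). Lipid droplet genes gave 2 in each direction of 18, or 1 lower without the acinar libraries.

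Amino acid catabolism and the urea cycle formed a second list that leaned to one side, with 13 of 26 members higher and 1 lower in NZO/HlLtJ (median 0.27). The median was 0.16 in females and 0.39 in males. In females alone 5 members were called higher and in males alone 12, and 0 were called in the test of strain by sex. Bckdhb, a subunit of the enzyme that oxidises branched-chain amino acids, measured 36.3, 38.7 and 47.4 CPM in C57BL/6J and 76.9, 81.7 and 94.98 CPM in NZO/HlLtJ (log2 fold change 1.07, SE 0.06, adjusted p = 1.94e-10). The alanine transaminase Gpt2 was higher by 1.01 (SE 0.11) and Arg1, the arginase of the urea cycle, went from 616, 845 and 935 CPM to 1104, 1183 and 1708 CPM (log2 fold change 0.67, SE 0.09, adjusted p = 1.70e-05). The ranges of these 3 genes, named for a small p, did not overlap. Of the 26 members 4 did not overlap, against 9.04% of all genes tested. Retinol and one-carbon genes were 9 higher and 2 lower of 19. Bhmt, which methylates homocysteine with betaine, measured 374, 1039 and 2752 CPM in C57BL/6J and 2247, 4848 and 9376 CPM in NZO/HlLtJ (log2 fold change 1.89, SE 0.34, adjusted p = 5.76e-04), and Dmgdh, which acts on the dimethylglycine it yields, was higher by 0.84 (SE 0.09). Ahcy had the largest decrease on this list, and its family sum is given with the near-identical genes.

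Gluconeogenesis and glycogen genes were 4 higher and 3 lower of 16. Glycolysis and fructose genes were 5 higher and 2 lower of 18, or 3 higher without the acinar libraries. The shares called on these lists, 43.8% and 38.9%, were near the 37.6% of all genes. Pck1, which commits carbon to glucose production, measured 1248, 2638 and 4144 CPM in C57BL/6J and 722, 1058 and 2522 CPM in NZO/HlLtJ (log2 fold change -1.10, SE 0.32, adjusted p = 0.0143). The Pck1 call was lost without the acinar libraries (-0.99, adjusted p = 0.0722) and with the identifier run as a covariate (-0.95, adjusted p = 0.0548). Ppp1r3g, a glycogen-targeting subunit of protein phosphatase 1, fell by 4.44 (SE 0.77). Of 18 insulin-related genes 3 were higher and 5 lower. Igfbp2, a binding protein for insulin-like growth factors, measured 226, 260 and 421 CPM in C57BL/6J and 30.3, 51.4 and 104 CPM in NZO/HlLtJ (log2 fold change -2.31, SE 0.21, adjusted p = 6.63e-07), and Igf1 itself was higher by 0.65 (SE 0.07). The insulin receptor inhibitor Enpp1 fell by 0.83 (SE 0.08) and the adaptor Grb10 was higher by 1.11 (SE 0.17).

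Lepr, the leptin receptor, in which NZO/HlLtJ is known to carry amino acid variants, averaged 100.3 CPM (SD 20.8) in females and 23.8 CPM (SD 7.94) in males of C57BL/6J. In NZO/HlLtJ the means were 17.2 CPM (SD 3.47) and 6.55 CPM (SD 2.62), and the log2 fold change was -2.23 (SE 0.22, adjusted p = 1.69e-06). Within each sex the decrease was past the threshold, and the strains overlapped only across sexes. Lepr shares its locus with Leprot, which fell by 0.26 (SE 0.08), and reads from their shared first exons may not be separable. Of 8 genes of leptin signalling these were the 2 called, with 1 called higher when the acinar libraries were left out. The list of known carriers of strain variants held Lepr, Nnt, Nlrp12, Pctp, Zfp69, Abcg1 and H2-Ea-ps, which is described with the histocompatibility genes, and also Ifi202b and H2-Ea, which were not analysed here. Nnt, of which C57BL/6J carries a deletion allele, went from 46.8, 57.6 and 77.7 CPM to 115, 125 and 150 CPM (log2 fold change 1.09, SE 0.09, adjusted p = 2.10e-08), and Nlrp12, an inflammation-related sensor gene, fell from 26.4, 32.8 and 48.3 CPM to 0.785, 2.29 and 6.78 CPM. Pctp (-0.33, adjusted p = 0.112), Zfp69 (-0.17, adjusted p = 0.493) and Abcg1 (0.01, adjusted p = 0.972) did not pass the test.

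Immune genes differed in both directions. The longest run of neighbouring tested genes that were each called at least 2-fold lay on chromosome 1, from 173468509 to 174822729. The calls themselves set the ends of the run. It held 13 genes, 2 higher and 11 lower, among them members of the interferon-inducible p200 family. Mndal measured 6.12, 9.80 and 12.9 CPM in C57BL/6J and 0, 0.010 and 0.128 CPM in NZO/HlLtJ (log2 fold change -8.17, SE 0.34, adjusted p = 3.68e-12). Ifi204, Ifi205 and Ifi203 were lower by 1.89 (SE 0.17), 3.61 (SE 0.29) and 1.22 (SE 0.09), and 5 of the 6 tested members of that family were lower and 0 higher. Immunity-related and guanylate-binding GTPases were 3 higher and 2 lower of 17, with 0 called at least 2-fold. On the type I interferon list 12 of 30 were higher and 3 lower (median 0.26). The higher count ran from 8 to 15 as single libraries were left out. In females alone 2 were called higher and in males alone 9, and 0 were called in the test of strain by sex. On 44% fat the median of this list was -0.17. Mx1, an antiviral GTPase that many laboratory strains carry in a defective form, went from 0.628, 1.35 and 2.39 CPM to 6.75, 11.4 and 16.1 CPM (log2 fold change 3.06, SE 0.19, adjusted p = 6.52e-10). Its neighbour Mx2 had 1640 counts in C57BL/6J and 2 in NZO/HlLtJ, a ratio with a counting interval from 229 to 6830, and CAST/EiJ averaged 42.9 CPM of it (SD 13.3, n = 7).

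The strains carry different haplotypes of the major histocompatibility complex on chromosome 17, and of 20 class I and peptide loading genes 6 were higher and 8 lower. H2-Q7 measured 54.5, 63.4 and 70.2 CPM in C57BL/6J and 3.26, 3.62 and 4.24 CPM in NZO/HlLtJ (log2 fold change -4.11, SE 0.07, adjusted p = 5.14e-18). H2-Q1 fell by 9.11 (SE 0.47) and the classical class I gene H2-K1 by 1.44 (SE 0.10). H2-Q10, a secreted class I protein made by liver, went from 1396, 1545 and 1714 CPM to 2962, 3265 and 4025 CPM (log2 fold change 1.13, SE 0.06, adjusted p = 3.15e-11), and the peptide transporter Tap2 was higher by 1.12 (SE 0.07). H2-Ea-ps, the class II alpha chain gene that C57BL/6J is known to carry in an inactive form, had 1 count in C57BL/6J and 4251 in NZO/HlLtJ, a ratio with a counting interval from 756 to 167000. CAST/EiJ averaged 7.58 CPM of it (SD 2.75, n = 7). Close class I paralogs share sequence, so the split of reads among them is uncertain.

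Acute phase proteins were higher in 11 of 29 cases and lower in 3, or 7 higher without the acinar libraries. Apcs, serum amyloid P, measured 34.2, 82.9 and 138 CPM in C57BL/6J and 179, 219 and 459 CPM in NZO/HlLtJ (log2 fold change 1.69, SE 0.19, adjusted p = 3.52e-06), while C-reactive protein, Crp, fell by 0.53 (SE 0.08). Coagulation and complement genes were 7 higher and 6 lower of 41, with 12 lower when NZO/HlLtJ female replicate 3 was left out. Serpina protease inhibitors were 6 higher and 1 lower of 16. Iron handling genes were 3 in each direction of 15, among them Tfrc, the transferrin receptor, which went from 9.75, 12.5 and 18.0 CPM to 21.0, 42.3 and 58.5 CPM (log2 fold change 1.59, SE 0.18, adjusted p = 5.29e-06). The libraries of the strains did not overlap for Tfrc. Nuclear receptors were 6 higher and 3 lower of 22. The shares called were 40.0% for iron handling and 40.9% for nuclear receptors, near the 37.6% of all genes.

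Of 13 mitochondrially encoded genes, 1 was higher (0 without the acinar libraries) and 2 were lower. The transcript mt-Nd2, a subunit of respiratory complex I, stood out with 3421, 4014 and 5567 CPM in C57BL/6J and 1612, 2262 and 2445 CPM in NZO/HlLtJ (log2 fold change -0.91, SE 0.10, adjusted p = 8.44e-07), and CAST/EiJ averaged 4888 CPM (SD 620, n = 7). Nuclear-encoded respiratory chain genes were 5 higher and 2 lower of 20. Endoplasmic reticulum chaperones and stress genes gave the smallest share of calls of any list of at least 8 tested genes, 1 of 24, the sensor Atf6, which fell by 0.34 (SE 0.06). Cell cycle genes were 5 higher and 2 lower of 21, and the higher count ran from 2 to 11 as single libraries were left out (2 without NZO/HlLtJ female replicate 1, 11 without C57BL/6J male replicate 2, and 11 without both acinar libraries). In females alone 12 were higher and in males alone 1, and whether that differs between the sexes was tested only gene by gene, with 0 members called. In the same fit of both sexes, clock genes were 4 higher and 0 lower of 18, or 2 higher without the acinar libraries.

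Markers of cell types other than hepatocytes were called lower in NZO/HlLtJ more often than higher for collagen and stellate cells and for bile duct cells. In bulk liver, fewer cells of a type and less RNA per cell cannot be told apart. Of 20 tested collagen and stellate cell markers 10 were lower and 1 was higher (median -0.25), with Col3a1 at 25.2, 29.9 and 41.2 CPM in C57BL/6J and 15.2, 21.0 and 24.5 CPM in NZO/HlLtJ (log2 fold change -0.64, SE 0.12, adjusted p = 3.40e-04) and Col6a1 lower by 0.78 (SE 0.11). The summed level of the 21 markers in the table ran from 447.9 to 620.0 CPM in females and from 475.2 to 536.4 CPM in males of C57BL/6J, and from 414.5 to 470.6 and from 396.2 to 459.4 CPM in those of NZO/HlLtJ. Among 8 bile duct markers 3 were lower, with Epcam at 0.911, 1.37 and 2.26 CPM against 0.360, 0.462 and 0.796 CPM (log2 fold change -1.57, SE 0.21). Their summed level was not lower in females, at 52.43 CPM (SD 1.77) in C57BL/6J and 53.15 CPM (SD 8.04) in NZO/HlLtJ. In males it averaged 55.33 CPM (SD 9.61) and 45.74 CPM (SD 7.94), with overlapping ranges. Of 12 endothelial markers 0 were higher and 1 was lower, or 0 lower without the acinar libraries. That lower count ran from 1 to 6 as single libraries were left out. Kupffer cell and macrophage markers were 1 higher and 3 lower of 16, and lymphocyte markers 1 higher and 2 lower of 17, with 2 higher on each list without the acinar libraries. Without NZO/HlLtJ female replicate 3, 6 Kupffer cell markers were lower, and without NZO/HlLtJ female replicate 1, 4 lymphocyte markers were higher. The shares of lower calls on the Kupffer cell and lymphocyte lists lay near or under the 18.0% of all genes. Of 10 hepatocyte markers 2 were higher and 1 was lower, and without the acinar libraries 0 were called in either direction. What share of the other results moves with these markers was not tested.

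**Figure D4:**
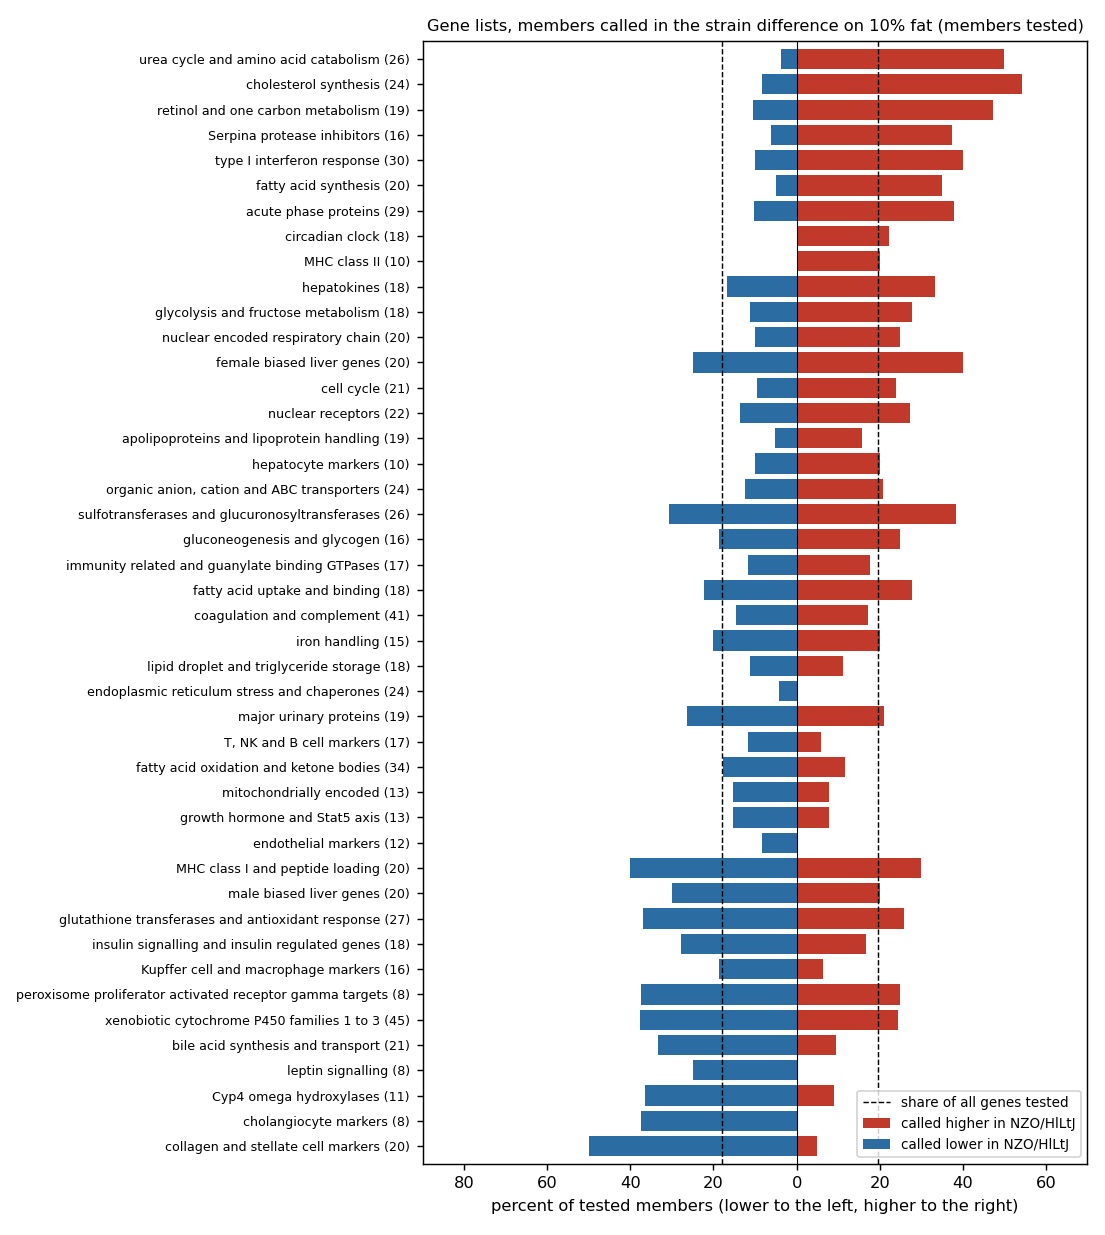
Percent of tested members called higher (red, to the right) and lower (blue, to the left) in NZO/HlLtJ for each list of at least 8 tested genes, with the number tested in brackets; dashed lines mark the shares over all genes tested, 19.6% higher and 18.0% lower. Cholesterol synthesis and amino acid catabolism reach farthest to the right and collagen and stellate cell markers farthest to the left.

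Called genes were spread over the genome, with 32.8% of tested genes called on the X chromosome and 42.0% on chromosome 13, the extremes among chromosomes other than Y and the mitochondrial genome. Some runs of adjacent tested genes that were all called at least 2-fold lay in gene families and others mixed several families. Those described here were chosen after they were seen. Beside the p200 region, they included 7 genes of the Cyp3a cluster on chromosome 5 (145436309 to 145879964; 5 higher, 2 lower), 6 genes around Cml3 and Nat8 on chromosome 6 (85706727 to 85832082; 6 higher) and 5 of the 7 tested Gstm genes on chromosome 3 (107926334 to 108017973; 1 higher, 4 lower). Runs that mixed families included 5 genes on chromosome 9 (45042425 to 45204092, 5 higher), among them Mpzl2, Mpzl3 and Scn4b. Another held 4 genes on chromosome 2 (69238282 to 69586065, 4 lower), among them Abcb11 and Lrp2. Cml3, an N-acetyltransferase-related gene, had a log2 fold change of 6.74 (SE 0.27), and with its near-identical copies summed the value was 3.80 (SE 0.32, adjusted p = 3.44e-07).

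A test of whether the strain difference itself differed between males and females called 22 genes (0.143% of those tested), 10 with a larger male than female value and 12 with a smaller one. At an unadjusted p under 0.05 there were 1217 such genes, and DESeq2 called 120. Leaving out single libraries gave 4 (without C57BL/6J female replicate 1) to 35 (without C57BL/6J male replicate 2). Adam11, a catalytically inactive disintegrin, reversed: it averaged 10.9 CPM (SD 3.24) in females and 4.52 CPM (SD 0.594) in males of C57BL/6J, and 4.80 CPM (SD 1.09) and 10.5 CPM (SD 1.06) in those of NZO/HlLtJ, a difference of 2.39 on the log2 scale (SE 0.28, adjusted p = 0.00158). Prlr, the prolactin receptor, overlapped between the strains in females (424 CPM, SD 27.1, in C57BL/6J and 448 CPM, SD 47.5, in NZO/HlLtJ) and higher in NZO/HlLtJ males (158 CPM, SD 16.3) than in C57BL/6J males (71.6 CPM, SD 5.71), with a difference of 1.06 (SE 0.14, adjusted p = 0.00327) that was not called with all 47 libraries in the fit. Hamp2, which encodes a relative of the iron hormone hepcidin, averaged 167 CPM (SD 67.5) and 8.75 CPM (SD 2.58) in C57BL/6J females and males and 830 CPM (SD 296) and 494 CPM (SD 104) in those of NZO/HlLtJ. Its difference was 3.50 (SE 0.49, adjusted p = 0.0159), a call lost without the acinar libraries. BC089597 gave -1.96 (SE 0.23, adjusted p = 0.00158) and D16Ertd472e -1.01 (SE 0.15, adjusted p = 0.0159); the latter was lost without C57BL/6J female replicate 1 and with all 47 libraries.

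On 44% fat, measured in 16 other libraries of the same strains, 5059 of 15374 genes (32.9%) were called, and 3755 genes were called in the same direction on both diets, 65.1% of the calls on 10% fat and 74.2% of those on 44% fat. Of 5719 genes called on 10% fat and tested on 44% fat, 5562 had the same sign. A test of the strain difference on 10% fat minus that on 44% fat called 2 of 15911 genes (0.0126%), with 1115 at an unadjusted p under 0.05, and DESeq2 called 39. Tstd1, a sulfurtransferase-like gene, averaged 2.27 CPM (SD 0.564) in females and 3.55 CPM (SD 0.319) in males of C57BL/6J on 10% fat, and 10.1 CPM (SD 0.356) and 8.76 CPM (SD 1.37) in NZO/HlLtJ. On 44% fat the means were 4.39 and 4.54 CPM in C57BL/6J and 7.60 and 3.65 CPM in NZO/HlLtJ, so the log2 fold change was 1.71 (SE 0.15) on 10% fat and 0.24 (SE 0.21) on 44% fat, a difference of 1.49 (SE 0.20, adjusted p = 7.95e-04).

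Ddah1, which degrades the nitric oxide synthase inhibitor dimethylarginine, was called in both of these tests. On 10% fat it averaged 181 CPM (SD 19.2) in females and 145 CPM (SD 16.6) in males of C57BL/6J, and 82.3 CPM (SD 11.9) and 15.7 CPM (SD 7.35) in those of NZO/HlLtJ. On 44% fat the NZO/HlLtJ means were 102 CPM (SD 26.3) in females and 73.5 CPM (SD 15.5) in males, and the C57BL/6J means 179 and 152 CPM. The low value was thus that of NZO/HlLtJ males on 10% fat, whose 4 libraries ran from 8.74 to 25.5 CPM. The strain difference differed between diets by -1.24 (SE 0.21, adjusted p = 0.0277) and between the sexes by -2.07 (SE 0.34, adjusted p = 0.0282). The diet call for Ddah1 was lost without the acinar libraries and when any 1 of 16 single libraries was left out, and the sex call without the acinar libraries and for any 1 of 11. In the diet test the acinar libraries left out also included C57BL/6J female replicates 1 and 2 on 44% fat. These held Cpa1 at 80.98 and 40.96 CPM. For Lepr the strain difference was -2.23 on 10% fat and -0.82 (SE 0.37) on 44% fat, and the difference of these did not pass the test (-1.43, SE 0.34, adjusted p = 0.223).

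**Figure D5:**
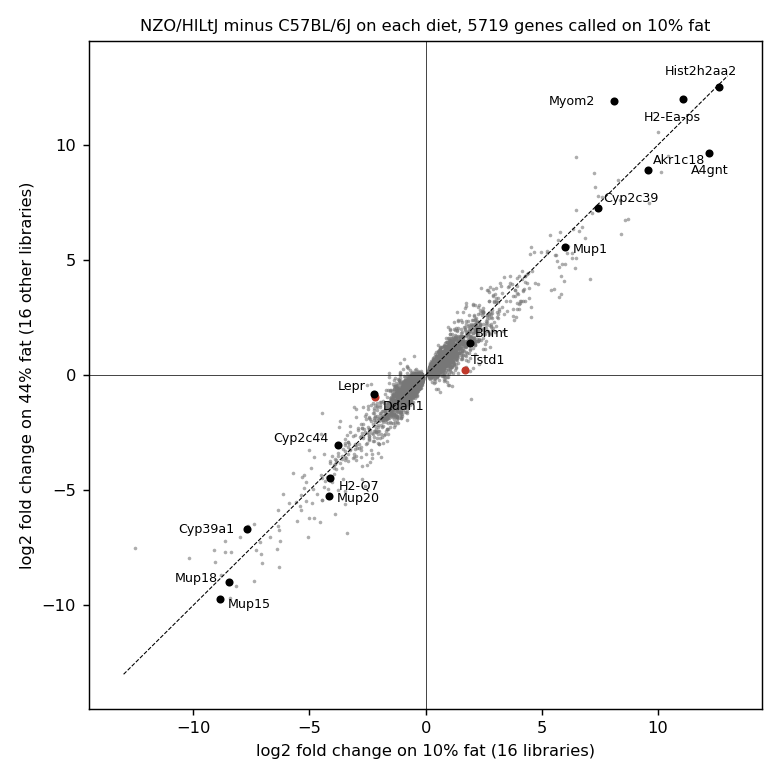
Log2 fold change of NZO/HlLtJ over C57BL/6J on 44% fat (vertical axis, 16 other libraries) against that on 10% fat (horizontal axis, 16 libraries) for the 5719 genes called on 10% fat and tested on both, with the line of equal values dashed. Most points lie along the dashed line; Tstd1 and Ddah1 (red) are the 2 genes called for a difference between diets.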

How the data were processed

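Poly(A) RNA of 47 liver libraries was sequenced as 100-base read pairs to a stated target depth. The deposited table gives expected counts per gene, of which 20.3% of values were not whole, and a second deposited table gives variance-stabilized values on a log2 scale; the submitters' processing notes name GRCm38 and DESeq2. Which aligner, counter, strand setting and gene annotation were used is not given in the sources used here.

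Expected counts were rounded. Genes were filtered with edgeR's filterByExpr by strain, sex and diet group, scaled by TMM and tested with edgeR's quasi-likelihood test (edgeR 4.0.16, R 4.3.3) on sex and strain over 16 libraries. Strain by sex used 4 group means, and strain by diet 8 group means of 32 libraries. Calls rest on p-values adjusted by Benjamini and Hochberg over all genes tested, at a threshold of 0.05. CPM values carry the TMM factors of all 47 libraries. The scripts were tested on simulated data. Coding sequences and near-identical genes (at least 95% identity, 80% of the shorter transcript and 200 bases) came from GENCODE vM21, which held 20202 of the 20320 genes.

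The libraries follow from their titles; the choice of this comparison, of its members and of the gene lists was made with earlier results of these data known. Genes were named by rule: among genes called with 1 sign in both sexes and averaging 1 log2 CPM or more, the 12 highest and 12 lowest fold changes; the 8 smallest p; the 10 largest CPM differences; up to 5 members of each list with the smallest p; up to 6 genes of each interaction; and known strain variants. Genes with Gm or Rik names were left out of the rule. Gm4737, Hba-a2, Tpm3, C4b, Rnaset2a and Rnaset2b were named after their values were seen, as partners of near-identical genes. Alternatives were DESeq2 1.42.0, limma 3.58.1 on the variance-stabilized values, RLE factors, other filters, all libraries, the identifier run, 1 sex or run alone, leaving out the acinar libraries or each replicate, and, added after seeing the data, summed near-identical genes. Intervals and floors cover counting error only. Some items are not reported here.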

Additional observations from a re-analysis of the deposited data

Results flagged for a closer look

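Within groups of 4 libraries, 1 library stood apart by Dixon's test in 22 of 338 sets of gene and group, drawn from 98 genes; chance alone gives about 1 in 20. C57BL/6J male replicate 2 held 6 of them: Cyp2c39 at 1.77 CPM (the others 0.79 to 0.94), H2-Q1 at 21.62 CPM (6.59 to 7.16), Gstm3 at 100.3 CPM (30.4 to 41.0), Cyp3a11 at 4608 CPM (1342 to 1485), Igfbp2 at 421.1 CPM (226 to 250) and Enpp1 at 32.73 CPM (27.3 to 28.0). NZO/HlLtJ female replicate 3 held 5: Bhmt at 4942 CPM (2247 to 2647), Bckdhb at 94.98 CPM (76.9 to 79.2), Gpt2 at 501.9 CPM (311 to 343), Arg1 at 1708 CPM (1140 to 1167) and Igf1 at 680.0 CPM (857 to 893). NZO/HlLtJ male replicate 4 held 3: Fasn at 6255 CPM (2485 to 2627), Gstm2 at 11.02 CPM (4.74 to 5.64) and Mup15 at 0.3256 CPM (1.22 to 1.33).

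The remaining values were Btnl9 at 6.426 CPM and Ugt1a6a at 114.6 CPM in C57BL/6J male replicate 3, Pgk1 at 262.6 CPM and Pnpla3 at 70.5 CPM in C57BL/6J female replicate 2, Tpm3 at 75.75 CPM in C57BL/6J female replicate 1 and Mup20 at 83.82 CPM in C57BL/6J female replicate 3. In NZO/HlLtJ they were Cyp2c44 at 16.17 CPM in female replicate 4 and Srebf1 at 536.2 CPM in male replicate 3.

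The strain difference itself differed between the sexes, on the log2 scale and as male minus female, for Adam11 (2.39), BC089597 (-1.96), Prlr (1.06), D16Ertd472e (-1.01), Hamp2 (3.50), Shmt1 (0.70) and Ddah1 (-2.07), 7 of the 22 genes called. The call for Shmt1 was lost with all 47 libraries, without the acinar libraries and when any 1 of 5 libraries was left out. Between the diets, as 10% minus 44% fat, it differed for Tstd1 (1.49) and Ddah1 (-1.24).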

How the results depend on the processing

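The 5767 genes called between the strains became 4774 to 6238 over DESeq2, limma, other scalings and filters, all 47 libraries, the run covariate, 4 group means, summed near-identical genes and leaving out the acinar libraries, and 5282 to 5956 when 1 library was left out. Smaller sets gave 3164 in females alone, 3318 in males alone, and 2103, 1155 and 931 in the single runs, with fewer samples in each; 1321 were called and at least 2-fold. Strain by sex gave 22 genes, 120 with DESeq2, 41 with limma and 4 to 35 with 1 library left out. Strain by diet gave 2, 39 with DESeq2, 6 with limma, 1 without the acinar libraries of both diets and 1 to 9 with 1 library left out. The causes of these differences were not tested. Of 225 called genes examined, 196 kept their call in every alternative outside 1 sex or run. These genes were named mostly for a small p or a large difference, so they do not stand for all calls. Of all 5767 calls, 4500 were kept without the acinar libraries and 5187 with the run covariate. Signs reversed only in 1 sex or run: in females alone Cela1 (0.99); in males alone Adam11 (1.20); in run 1 Cela1 (0.60); in run 2 Cela1 (1.73), Cyp4a12b (1.36) and Prlr (-0.01); in run 3 G0s2 (0.03), Car3 (-0.11) and Adam11 (1.35). Of 98 list counts, 49 stayed within 1.5 times in every alternative outside 1 sex or run. No paired analysis was possible because the labels carry no replicate numbers that tie libraries of the strains together.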
